A study of Mus musculus with 12 samples.

Results

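The collagen genes are the 44 genes of the count table whose symbol is Col, a number, a and a number, out of 55414 identifiers. By class, 11 encode fibrillar chains, 6 encode the type IV chains of basement membranes, 9 encode FACIT chains, which sit on the surface of fibrils, and 18 encode other types such as the beaded filaments of type VI. The RNA came from 3T3-L1, a line of mouse fibroblasts that turn into fat cells after hormonal induction and that the labels call mesenchymal stem cells. There were 4 groups of 3 libraries, given here as labelled: FHL2-GFP cells at day 2, CTRL-GFP cells at day 2, FHL2-GFP cells at day 0 and CTRL-GFP cells at day 0, named FHL2 and control below. Cells of both lines carried GFP and were grown in 10% fetal bovine serum. Day 0 cells were post-confluent and had not yet been induced, and day 2 cells had been kept for 2 days in 170 nM insulin, 1 uM dexamethasone and 0.5 mM isobutylmethylxanthine. The labels do not say whether the 3 libraries of a group came from separate cultures, so p-values measure the spread between these libraries, which may be technical. They do not give the promoter of the constructs, the species of the FHL2 sequence or the number of clones either.

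Fhl2, the gene named by the construct, had 18.7, 9.92 and 22.6 CPM (TMM-scaled counts, relative to the library total) in FHL2 day 2 libraries and 13.9, 14.2 and 21.0 CPM in control day 2 libraries. At day 0 it had 67.4, 58.8 and 62.0 CPM in FHL2 libraries and 58.9, 61.0 and 63.7 CPM in control libraries. The groups overlapped at both days, so the count table does not show the label, and "FHL2" below means the libraries labelled FHL2. Depth ranged from 10047708 to 21872139 counts per library. Between 12689 and 16131 genes had a count in day 2 libraries, against 17977 to 18811 in day 0 libraries, and the fewest were in control day 2 replicate 3 and FHL2 day 2 replicates 1 and 2. The 8 fibroblast and preadipocyte markers, all with counts except 1 in control day 2 libraries, summed to 11500 to 12700 CPM in FHL2 day 2, 10900 to 13200 CPM in control day 2, 10700 to 11100 CPM in FHL2 day 0 and 9820 to 11200 CPM in control day 0 libraries. The 6 adipocyte markers summed to 94.5 to 122 CPM in FHL2 day 2 and 130 to 185 CPM in control day 2 libraries, against 16.9 to 19.2 CPM in FHL2 day 0 and 20.5 to 23.7 CPM in control day 0 libraries, where Adipoq, Plin1 and Cidec were at 0. Markers of endothelium, epithelium, blood and cartilage or bone each summed to at most 3.95 CPM in any library, and those of muscle to at most 5.13 CPM.

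Collagens are secreted proteins made of 3 chains wound into a triple helix. Types I, III and V form the fibrils of connective tissue, type IV forms the sheet of the basement membrane that encloses each fat cell, and type VI forms beaded filaments that are abundant in adipose tissue. Preadipocytes in culture make a fibril-rich matrix, and the conversion to fat cells is known to be accompanied by a shift towards basement membrane components.

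Of the 44 collagens, 28 passed the filter on low counts and 20 of these had a mean of at least 10 CPM in some group. The 16 that did not pass had 215 counts in all 12 libraries together, at most 42 each. Col13a1 and Col24a1 had none, and Col2a1 and Col10a1, which are among the collagens of cartilage, had 42 and 4. Counting reads without molecular tags, such totals cover counting error only.

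Collagens took 3.03 ± 0.35% of all counts in FHL2 day 2, 3.53 ± 0.30% in control day 2, 3.19 ± 0.10% in FHL2 day 0 and 3.28 ± 0.20% in control day 0 libraries (SD, n = 3 each). The class composition differed far more between days than between lines. Fibrillar chains made up 48.0 ± 2.2% of collagen counts in FHL2 day 2 and 45.8 ± 0.95% in control day 2 libraries, against 72.8 ± 0.68% in FHL2 day 0 and 72.9 ± 0.64% in control day 0 libraries. Type IV chains made up 14.8 ± 0.64% in FHL2 day 2 and 18.4 ± 0.22% in control day 2 libraries, against 7.42 ± 0.11% in FHL2 day 0 and 8.05 ± 0.32% in control day 0 libraries. Type VI chains made up 36.0 ± 1.7% in FHL2 day 2 and 34.4 ± 0.77% in control day 2 libraries, against 17.9 ± 0.53% in FHL2 day 0 and 17.2 ± 0.42% in control day 0 libraries. In each of these classes every day 2 library lay outside the range of the day 0 libraries. FACIT chains stayed a small part, at 0.699 ± 0.017% in FHL2 day 2, 0.893 ± 0.091% in control day 2, 1.38 ± 0.03% in FHL2 day 0 and 1.36 ± 0.05% in control day 0 libraries. These shares are of counts and so weigh long transcripts more, and they are descriptions without a test.

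**Figure D1:**
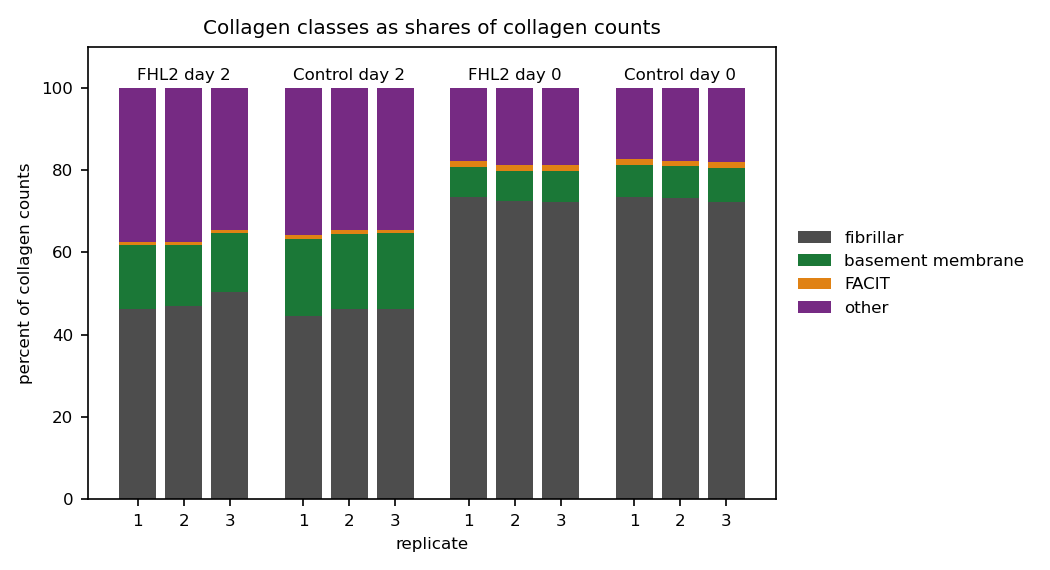
Share of each collagen class in the collagen counts of each library, in percent, as stacked bars, with replicates 1 to 3 of each group side by side. Fibrillar chains made up between 44.7% and 50.5% in day 2 libraries and between 72.2% and 73.6% in day 0 libraries.

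Per kilobase of longest transcript, which allows levels of different genes to be compared, the order of the collagens at the top changed between the days in the same way in both lines. At day 2 Col6a1 stood first, at 1574 ± 211 CPM per kb in FHL2 and 1733 ± 224 CPM per kb in control libraries. Col3a1 came next, at 1249 ± 71 and 1313 ± 82 CPM per kb in FHL2 and control day 2 libraries. Neither overlapped the gene below it. Col6a2 and Col1a2 followed and overlapped each other in both lines. At day 0 Col1a2 stood first, at 1287 ± 27 CPM per kb in FHL2 and 1354 ± 49 CPM per kb in control libraries, ahead of Col3a1 at 1203 ± 10 and 1183 ± 50, Col1a1 at 874 ± 20 and 960 ± 41, and Col6a1 at 652 ± 25 and 650.0 ± 44 CPM per kb in FHL2 and control day 0 libraries. None of these neighbours overlapped at day 0. Over all libraries the 5 collagens with the most counts, Col3a1, Col1a2, Col6a1, Col1a1 and Col6a2, held 76.8% of collagen counts.

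**Figure D2:**
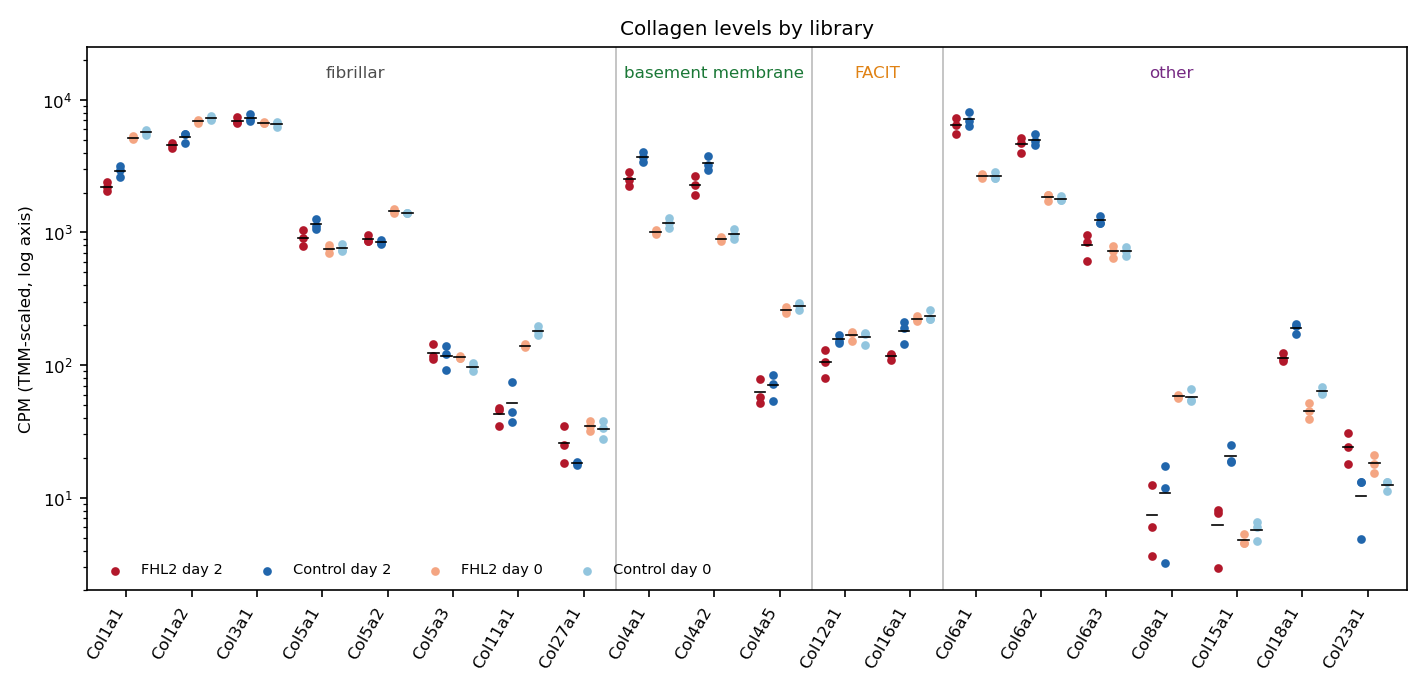
TMM-scaled CPM on a log axis for the 20 collagens with a mean of at least 10 CPM in some group, by class. Each point is 1 library, and each short line is the mean of 3. Col4a1, Col4a2, Col6a1 and Col6a2 are higher in every day 2 library than in any day 0 library, and Col1a1, Col1a2, Col5a2, Col11a1, Col4a5 and Col8a1 are lower.

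The sequences upstream of 4 members are printed here because these genes carry the contrasts described below: Col1a2 was highest at day 0, Col6a1 highest at day 2, Col3a1 was not called in either line with induction, and Col16a1 was lower in FHL2 than in control libraries at day 2. Each line is the 250 bases before the RefSeq gene start in build GRCm38.p6, 5′ to 3′ on the strand of the gene, at chr6:4505368-4505617 on the plus strand for Col1a2, chr1:45311288-45311537 on the plus strand for Col3a1, chr10:76726045-76726294 on the minus strand for Col6a1 and chr4:130047590-130047839 on the plus strand for Col16a1. Capitals mark 4 motifs searched on either strand, whose matches may overlap: the CCAAT box by its letters, the GC box written GGGCGG, the TATA box written TATAAA, and a run of pyrimidines written CCCTCCC.
Col1a2: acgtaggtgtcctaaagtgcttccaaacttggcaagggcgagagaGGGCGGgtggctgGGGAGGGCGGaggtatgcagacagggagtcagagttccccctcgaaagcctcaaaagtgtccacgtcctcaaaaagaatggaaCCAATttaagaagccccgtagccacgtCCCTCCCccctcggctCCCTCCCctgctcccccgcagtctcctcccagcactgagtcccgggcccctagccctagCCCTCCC
Col3a1: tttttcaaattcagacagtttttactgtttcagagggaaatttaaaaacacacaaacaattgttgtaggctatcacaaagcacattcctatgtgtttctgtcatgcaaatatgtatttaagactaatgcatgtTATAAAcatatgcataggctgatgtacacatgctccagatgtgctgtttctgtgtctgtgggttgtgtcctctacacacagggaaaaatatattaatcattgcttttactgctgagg
Col6a1: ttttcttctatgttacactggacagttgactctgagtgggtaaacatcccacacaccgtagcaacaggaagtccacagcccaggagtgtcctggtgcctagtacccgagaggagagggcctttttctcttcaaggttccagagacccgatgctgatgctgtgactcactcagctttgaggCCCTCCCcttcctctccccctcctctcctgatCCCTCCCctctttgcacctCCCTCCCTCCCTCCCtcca
Col16a1: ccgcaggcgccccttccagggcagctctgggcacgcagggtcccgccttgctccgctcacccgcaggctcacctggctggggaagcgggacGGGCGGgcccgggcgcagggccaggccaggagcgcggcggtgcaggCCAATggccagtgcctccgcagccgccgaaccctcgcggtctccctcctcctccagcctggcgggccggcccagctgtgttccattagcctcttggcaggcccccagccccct

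The Col3a1 window had a GC content of 35.2% and held 1 match, to the TATA box. That of Col16a1 had a GC content of 75.6% with 1 CCAAT box and 1 GC box. The Col1a2 window held 1 CCAAT box, 2 GC boxes and 4 pyrimidine runs, and that of Col6a1 held 5 pyrimidine runs. In the 38 collagen promoters of the table, which belong to 35 of the 44 genes, the CCAAT box was found in 34.2% (33.8% of all 32851 promoters), the GC box in 57.9% (32.7%), the TATA box in 13.2% (12.4%) and the pyrimidine run in 47.4% (19.7%). A match is a description of letters and not a binding site.

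The first question was how the collagens changed over 2 days of adipogenic induction in each line. The type IV chains Col4a1 and Col4a2, the type VI chains Col6a1 and Col6a2 and the multiplexin Col18a1 rose in both lines. The type I chains Col1a1 and Col1a2 fell in both, as did Col5a2, Col11a1, Col4a5, Col8a1 and Col16a1. The control call of Col16a1 was lost in 6 of the 17 alternatives tried. Col3a1 was not called in either line. Of the 28 tested collagens, 6 were called higher and 10 lower in FHL2 cells (adjusted p under 0.05 in edgeR's quasi-likelihood test, Benjamini-Hochberg over all 14435 genes), where 56% of all genes tested were called, 25.8% higher and 30.2% lower. In control cells 8 were called higher and 8 lower, against 57.1% of all genes, 26.3% higher and 30.8% lower. Before the GC correction described below, the share of collagens called was thus close to that of all genes. Of the calls, 6 higher and 7 lower ones were made in both lines. The lower calls in FHL2 cells include Col9a3 and Col28a1. Both passed the filter on low counts through day 0 libraries, where they were high, so the filter favoured a fall. They are also among the collagens without overlap counted next. The groups of 3 did not overlap for 17 collagens in FHL2 and 22 in control cells, against 66.2% of all genes in FHL2 and 68.7% in control cells. The median log2 fold change of the tested collagens was -0.45 in FHL2 and -0.40 in control cells, against -0.11 and -0.14 for all genes in FHL2 and control cells. With GC correction the collagen median was -0.719 in FHL2 and -0.975 in control cells, against -0.00123 and -0.0046 for all genes. With GC and length correction it was -0.418 and -0.74, against -0.0276 and -0.0259.

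A property of the day comparison touches each of these values. Across all genes, the log2 fold change from induction followed GC content (Spearman rho 0.582 in FHL2 and 0.603 in control cells over 14410 genes, which share the same libraries), and the 2882 genes with the highest GC content had a median of 0.69 in FHL2 and 0.73 in control cells. Collagen transcripts are GC-rich, with a median of 56.25% against 49.43% over all genes tested, and 16 of the 28 are in that class. Within the collagens the relation was weaker, at a rho of 0.407 in FHL2 and 0.29 in control cells (n = 28). With an offset in each library that follows GC content, the counts became 5 higher and 15 lower in FHL2 and 6 higher and 12 lower in control cells. That is 71.4% of the tested collagens in FHL2, where the same fit called 39.2% of all genes, 21.1% higher and 18.1% lower. In control cells it is 64.3% of the collagens and 39.5% of all genes, 21.8% higher and 17.7% lower. Collagen transcripts are also long, with a median of 5794 bases against 3070.5 over all genes tested. An offset following GC content and transcript length together gave 5 higher and 10 lower in FHL2 cells. In control cells it gave 9 higher and 8 lower. That fit called 5596 of 14435 genes in FHL2 and 5693 in control cells. The numbers called lower were then those found without correction. In FHL2 cells they were not all the same genes, since Col12a1 was no longer called there. Whether the relation with GC content is of technical or cellular origin was not tested. The data are from bulk RNA, so fewer cells of a type and less RNA per cell cannot be told apart.

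**Figure D3:**
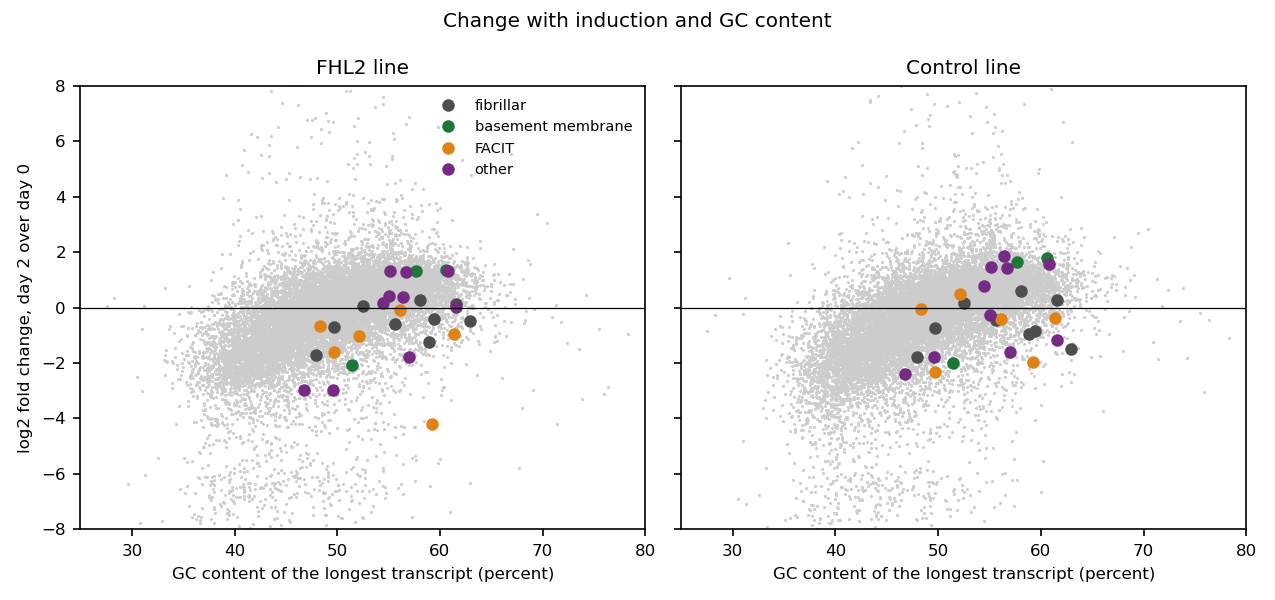
Log2 fold change of day 2 over day 0 against the GC content of the longest transcript in percent, in FHL2 and in control cells. Grey points are all genes tested that lie within the axes, and coloured points are the 28 tested collagens by class. Collagens sit at the GC-rich side, with a median GC content of 56.25%.

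Among fibrillar chains, those of type I fell. Col1a1 (ENSMUSG00000001506, chromosome 11), the chain of which the type I trimer holds more copies, had 2395, 2188 and 2052 CPM in FHL2 day 2 and 3195, 2602 and 2961 CPM in control day 2 libraries. Col1a1 had 5077, 5309 and 5154 CPM in FHL2 day 0 and 5742, 5429 and 5901 CPM in control day 0 libraries. Its log2 fold change was -1.23 ± 0.08 in FHL2 cells (SE, edgeR adjusted p = 3.58e-08) and -0.96 ± 0.08 in control cells (adjusted p = 2.79e-07), and after GC correction -1.95 in FHL2 and -1.73 in control cells. Col1a2 (ENSMUSG00000029661, chromosome 6), its partner chain, had 4754, 4564 and 4309 CPM in FHL2 day 2 and 5500, 4724 and 5516 CPM in control day 2 libraries. Col1a2 stood at 6739, 7025 and 6890 CPM in FHL2 day 0 and 7208, 6997 and 7522 CPM in control day 0 libraries. Its fall was smaller, by 0.60 ± 0.07 in FHL2 (adjusted p = 6.61e-06) and 0.46 ± 0.07 in control cells (adjusted p = 6.54e-05), and after GC correction its log2 fold change was -1.22 in FHL2 and -1.10 in control cells. The per-kilobase ratio of Col1a1 to Col1a2 was therefore lower at day 2, at 0.439 ± 0.014 in FHL2 and 0.502 ± 0.020 in control libraries, than at day 0, at 0.679 ± 0.004 and 0.709 ± 0.009 in FHL2 and control libraries (SD, n = 3 each).

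Col3a1 (ENSMUSG00000026043, chromosome 1), which co-assembles with type I in soft tissue, had 7391, 6633 and 6828 CPM in FHL2 day 2 and 7826, 6971 and 7120 CPM in control day 2 libraries. Col3a1 was at 6679, 6646 and 6752 CPM in FHL2 day 0 and 6662, 6273 and 6810 CPM in control day 0 libraries. The days overlapped in FHL2 but not in control cells. Its log2 fold change was 0.05 ± 0.07 in FHL2 (adjusted p = 0.51) and 0.15 ± 0.07 in control cells (adjusted p = 0.0665). Without control day 2 replicate 3 it was called higher in control cells (0.23, adjusted p = 0.0298). In control cells 7 of the 17 alternatives changed its call or its sign, with values between -0.23 and 0.25. After GC correction the sign turned and both were called, at -0.31 in FHL2 (adjusted p = 0.00354) and -0.23 in control cells (adjusted p = 0.0221). The per-kilobase ratio of Col3a1 to Col1a1 was 3.36 ± 0.17 in FHL2 day 2 and 2.68 ± 0.16 in control day 2 libraries, against 1.38 ± 0.04 in FHL2 day 0 and 1.23 ± 0.003 in control day 0 libraries.

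The chains of type V, which start fibrils and limit their width, moved in opposite directions before GC correction, which turned the sign of Col5a1. Correction for GC content and transcript length together did not turn it in either line. Col5a2 (ENSMUSG00000026042, chromosome 1) had 953, 863 and 864 CPM in FHL2 day 2 and 878, 833 and 813 CPM in control day 2 libraries. Col5a2 had 1452, 1502 and 1409 CPM in FHL2 day 0 and 1400, 1393 and 1398 CPM in control day 0 libraries. It fell by 0.70 ± 0.07 in FHL2 (adjusted p = 9.55e-07) and by 0.73 ± 0.07 in control cells (adjusted p = 6.41e-07), and GC correction left these at -0.72 and -0.74 in FHL2 and control cells. Col5a2 and Col3a1 lie tail to tail on chromosome 1. Col5a1 (ENSMUSG00000026837, chromosome 2) had 1044, 910 and 789 CPM in FHL2 day 2 and 1271, 1114 and 1070 CPM in control day 2 libraries. Col5a1 stood at 701, 800.4 and 759 CPM in FHL2 day 0 and 734, 728 and 817 CPM in control day 0 libraries. It was called higher in FHL2 (0.28 ± 0.10, adjusted p = 0.0329), where the days overlapped, and in control cells (0.60 ± 0.10, adjusted p = 0.000194), where they did not. After GC correction its sign turned in both lines, to -0.43 in FHL2 (adjusted p = 0.00379) and -0.14 in control cells (adjusted p = 0.298). The FHL2 call was also lost when FHL2 day 0 replicate 1 or 3 or FHL2 day 2 replicate 1 or 2 was left out, with adjusted p up to 0.167. Col5a1 shares 99 and 113 exon bases with 2 transcripts of the opposite strand, 2810430I11Rik and Gm13372, and which strand was counted is not stated. Col5a3 (chromosome 9) had 111 to 145 CPM in FHL2 day 2 and 91.4 to 139 CPM in control day 2 libraries. Col5a3 was at 112 to 117 CPM in FHL2 day 0 and 89.7 to 104 CPM in control day 0 libraries. It was not called in either line with all libraries, though it was called higher in control cells without control day 2 replicate 3 (0.48, adjusted p = 0.00576), and after GC correction it was called lower in both, at -0.57 in FHL2 and -0.51 in control cells.

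Of the less abundant fibrillar chains, Col11a1 fell in both lines. Col11a1 (ENSMUSG00000027966, chromosome 3), a chain that joins type V in non-cartilage fibrils, had 46.2, 47.3 and 34.5 CPM in FHL2 day 2 and 74.9, 44.3 and 37.1 CPM in control day 2 libraries. Col11a1 had 137, 143 and 139 CPM in FHL2 day 0 and 196, 181 and 169 CPM in control day 0 libraries. It fell by 1.71 ± 0.20 in FHL2 (adjusted p = 6.87e-06) and by 1.80 ± 0.21 in control cells (adjusted p = 4.25e-06), and by 1.45 and 1.52 after GC correction in FHL2 and control cells. Col27a1 (chromosome 4) had 34.6, 18.1 and 25.2 CPM in FHL2 day 2 and 18.4, 18.7 and 17.6 CPM in control day 2 libraries. Col27a1 stood at 34.9, 38.1 and 31.9 CPM in FHL2 day 0 and 38.02, 28.0 and 33.5 CPM in control day 0 libraries. It was called lower in control cells (-0.86 ± 0.22, adjusted p = 0.00354) and not in FHL2 cells (-0.43 ± 0.21, adjusted p = 0.101), where the days overlapped and where it was called without FHL2 day 2 replicate 1 (-0.66, adjusted p = 0.0122). After GC correction it was called lower in both. The test of the difference between the lines did not pass for it (interaction 0.43 ± 0.30, adjusted p = 0.845). Col11a2 averaged 4.15 CPM in FHL2 day 2 and 2.61 CPM in control day 2 libraries, against 5.78 CPM in FHL2 day 0 and 7.50 CPM in control day 0 libraries. It was not called in the fit of all libraries. It was called lower in control cells after GC correction (-2.24, adjusted p = 0.0388), with limma-voom, without a filter, and without the 3 libraries of day 2 that had the fewest genes.

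In the basement membrane class the paired genes Col4a1 (ENSMUSG00000031502) and Col4a2 (ENSMUSG00000031503), which encode the chains of the common type IV trimer and lie head to head on chromosome 8, rose together. Col4a1 had 2853, 2496 and 2248 CPM in FHL2 day 2 and 4035, 3412 and 3699 CPM in control day 2 libraries. Col4a1 was at 972, 1037 and 1015 CPM in FHL2 day 0 and 1169, 1086 and 1281 CPM in control day 0 libraries. It rose by 1.33 ± 0.10 in FHL2 (adjusted p = 6.97e-08), a 2.51-fold change, and by 1.66 ± 0.10 in control cells (adjusted p = 9.37e-09), a 3.15-fold change, and by 0.63 and 0.93 after GC correction in FHL2 and control cells. Col4a2 had 2676, 2263 and 1928 CPM in FHL2 day 2 and 3752, 2965 and 3220 CPM in control day 2 libraries. Col4a2 had 856, 914 and 924 CPM in FHL2 day 0 and 951, 891 and 1066 CPM in control day 0 libraries. It rose by 1.35 ± 0.12 in FHL2 (adjusted p = 3.62e-07) and by 1.77 ± 0.12 in control cells (adjusted p = 3.02e-08), and by 0.64 and 0.99 after GC correction. The per-kilobase ratio of Col4a1 to Col4a2 moved little, at 1.08 ± 0.05 in FHL2 day 2, 1.10 ± 0.04 in control day 2, 1.10 ± 0.02 in FHL2 day 0 and 1.19 ± 0.01 in control day 0 libraries. The per-kilobase ratio of Col4a1 to Col1a1 was 1.02 ± 0.04 in FHL2 day 2 and 1.14 ± 0.03 in control day 2 libraries, against 0.174 ± 0.002 in FHL2 day 0 and 0.185 ± 0.008 in control day 0 libraries.

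Col4a5 (ENSMUSG00000031274, chromosome X), a chain of the type IV networks of kidney and smooth muscle, went the other way. It had 78.6, 57.7 and 51.4 CPM in FHL2 day 2 and 84.8, 72.2 and 54.1 CPM in control day 2 libraries. Col4a5 stood at 246, 276 and 261 CPM in FHL2 day 0 and 286, 262 and 295 CPM in control day 0 libraries. It fell by 2.06 ± 0.17 in FHL2 (adjusted p = 1.89e-07) and by 1.99 ± 0.17 in control cells (adjusted p = 2.30e-07), and remained called after GC correction at -2.30 in FHL2 and -2.26 in control cells. Its head-to-head neighbour Col4a6, with Col4a3 and Col4a4, was among the collagens below the filter.

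The beaded-filament chains of type VI behaved unequally. Col6a1 (ENSMUSG00000001119, chromosome 10) had 7299, 6498 and 5568 CPM in FHL2 day 2 and 8104, 6304 and 6903 CPM in control day 2 libraries. Col6a1 was at 2554, 2740 and 2724 CPM in FHL2 day 0 and 2553, 2569 and 2873 CPM in control day 0 libraries. It rose by 1.27 ± 0.11 in FHL2 (adjusted p = 2.36e-07) and by 1.41 ± 0.11 in control cells (adjusted p = 8.51e-08), and by 0.60 and 0.73 after GC correction. Col6a2 (ENSMUSG00000020241), its neighbour on chromosome 10, had 5134, 4727 and 3971 CPM in FHL2 day 2 and 5488, 4535 and 4870 CPM in control day 2 libraries. Col6a2 had 1736, 1904 and 1908 CPM in FHL2 day 0 and 1751, 1743 and 1875 CPM in control day 0 libraries. It rose by 1.32 ± 0.10 in FHL2 (adjusted p = 7.97e-08) and by 1.47 ± 0.10 in control cells (adjusted p = 2.70e-08), and by 0.73 and 0.87 after GC correction. The per-kilobase ratio of Col6a1 to Col6a2 was 1.68 ± 0.03 in FHL2 day 2, 1.71 ± 0.05 in control day 2, 1.73 ± 0.03 in FHL2 day 0 and 1.78 ± 0.05 in control day 0 libraries.

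Col6a3 (ENSMUSG00000048126, chromosome 1), the long partner chain whose cleaved end is secreted by fat cells as endotrophin, had 963, 843 and 613 CPM in FHL2 day 2 and 1338, 1177 and 1183 CPM in control day 2 libraries. Col6a3 stood at 641, 787 and 727 CPM in FHL2 day 0 and 726, 662 and 783 CPM in control day 0 libraries. The days overlapped in FHL2 cells (0.17 ± 0.14, adjusted p = 0.318) and did not in control cells, where it was called higher (0.77 ± 0.14, adjusted p = 0.000234). After GC correction it was -0.38 in FHL2 (adjusted p = 0.0392), a turned sign, and 0.21 in control cells (adjusted p = 0.234). Correction for GC content and transcript length together did not turn its sign in either line. Without FHL2 day 2 replicate 3 it was called higher in FHL2 cells as well (0.34, adjusted p = 0.0253). Its per-kilobase ratio to Col6a1 was 0.0503 ± 0.0049 in FHL2 day 2 and 0.0708 ± 0.0045 in control day 2 libraries, against 0.109 ± 0.007 in FHL2 day 0 and 0.1102 ± 0.0055 in control day 0 libraries.

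The multiplexins are basement membrane zone collagens with heparan sulfate chains on Col18a1. Col18a1 (ENSMUSG00000001435, chromosome 10), the source of endostatin, had 111, 123 and 107 CPM in FHL2 day 2 and 196, 205 and 171 CPM in control day 2 libraries. Col18a1 was at 39.1, 51.8 and 44.9 CPM in FHL2 day 0 and 67.8, 61.5 and 61.1 CPM in control day 0 libraries. It rose by 1.33 ± 0.12 in FHL2 (adjusted p = 5.61e-07) and by 1.59 ± 0.12 in control cells (adjusted p = 1.07e-07), and by 0.61 and 0.80 after GC correction. Col15a1 (ENSMUSG00000028339, chromosome 4) had 7.70, 2.98 and 8.05 CPM in FHL2 day 2 and 18.8, 24.8 and 18.5 CPM in control day 2 libraries. Col15a1 had 4.52, 4.54 and 5.36 CPM in FHL2 day 0 and 6.01, 6.53 and 4.72 CPM in control day 0 libraries. It was called higher in control cells (1.85 ± 0.36, adjusted p = 0.000499), a 3.59-fold change, and not in FHL2 cells (0.38 ± 0.35, adjusted p = 0.387), where FHL2 day 2 replicate 2 lay below the day 0 libraries. Without that library it was called higher in FHL2 cells too (0.73, adjusted p = 0.0482). After GC correction it was -0.27 in FHL2 (adjusted p = 0.592), a turned sign, and 1.17 in control cells (adjusted p = 0.0188).

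Col8a1 (ENSMUSG00000068196, chromosome 16), a short-chain network collagen, had the largest fall among the 20 members of at least 10 CPM before GC correction, after which Col4a5 fell more in control cells. Col8a1 had 12.6, 3.61 and 5.995 CPM in FHL2 day 2 and 17.3, 11.8 and 3.25 CPM in control day 2 libraries. It had 57.9, 59.7 and 56.3 CPM in FHL2 day 0 and 66.1, 54.4 and 53.2 CPM in control day 0 libraries. The fall was 2.97 ± 0.46 in FHL2 (adjusted p = 7.67e-05) and 2.40 ± 0.45 in control cells (adjusted p = 0.00038), and 2.48 and 1.89 after GC correction in FHL2 and control cells. Col23a1 (chromosome 11), a transmembrane collagen, had 30.5, 24.2 and 18.0 CPM in FHL2 day 2 and 13.2, 13.2 and 4.87 CPM in control day 2 libraries. Col23a1 was at 15.5, 18.0 and 21.1 CPM in FHL2 day 0 and 13.2, 11.3 and 13.1 CPM in control day 0 libraries, and was not called with induction in either line. After GC correction it was -0.16 in FHL2 (adjusted p = 0.711), against 0.42 before, and was called lower in control cells (-0.86, adjusted p = 0.0441). Col28a1 averaged 0.50 CPM in FHL2 day 2 and 1.13 CPM in control day 2 libraries, against 4.01 CPM in FHL2 day 0 and 3.804 CPM in control day 0 libraries. Col28a1 passed the filter through its day 0 libraries, which favours a fall. It was called lower in FHL2 cells (-2.98 ± 0.97, adjusted p = 0.0176) and not in control cells (-1.79 ± 0.93, adjusted p = 0.115), where 1 day 2 library, replicate 3, had 24 counts against 5 and 6, and without that library it was called lower there too (-3.18, adjusted p = 0.00914).

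Among FACIT collagens, Col16a1 (ENSMUSG00000040690, chromosome 4) had 120, 109.9 and 121 CPM in FHL2 day 2 and 212, 189 and 144 CPM in control day 2 libraries. Col16a1 had 222, 234 and 216 CPM in FHL2 day 0 and 224, 223 and 259 CPM in control day 0 libraries. It fell by 0.94 ± 0.12 in FHL2 (adjusted p = 1.71e-05) and by 0.37 ± 0.12 in control cells (adjusted p = 0.0181), and by 1.64 and 1.15 after GC correction. The control call was lost without control day 0 replicate 3 or control day 2 replicate 2 or 3, with the value down to -0.17 (adjusted p = 0.216) without control day 2 replicate 3. It was also lost with upper-quartile scaling and with only the groups compared. Col12a1 (ENSMUSG00000032332, chromosome 9), which bridges fibrils under tension, had 131, 106 and 79.8 CPM in FHL2 day 2 and 169.8, 152 and 147 CPM in control day 2 libraries. Col12a1 stood at 151, 176 and 178 CPM in FHL2 day 0 and 172, 142 and 175 CPM in control day 0 libraries. It was called lower in FHL2 (-0.68 ± 0.15, adjusted p = 0.00167) and not in control cells (-0.06 ± 0.15, adjusted p = 0.747). After GC correction it remained called lower in FHL2 (-0.47, adjusted p = 0.0295) and was 0.16 in control cells (adjusted p = 0.471). With a correction for GC content and transcript length together it was 0.02 in FHL2 and 0.57 in control cells (adjusted p = 0.000364). Col9a3 had 0, 3 and 3 counts in FHL2 day 2 and 0, 3 and 15 counts in control day 2 libraries, against 55, 75 and 38 counts in FHL2 day 0 and 47, 46 and 37 counts in control day 0 libraries. Col9a3 too passed the filter through its day 0 libraries. It was called lower in FHL2 (adjusted p = 0.0113) and not in control cells (adjusted p = 0.156), where it was called without control day 2 replicate 3 (adjusted p = 0.00745), and it shares 234 exon bases with Tcfl5 on the opposite strand. Col20a1 averaged between 5.62 and 7.46 CPM in all groups and was not called in the fit of all libraries. It was called lower with induction in control cells without control day 2 replicate 3 (-1.06, adjusted p = 0.0197) and without the 3 libraries of day 2 that had the fewest genes (-1.07, adjusted p = 0.00315). The other tested members, Col7a1, Col9a1, Col14a1 and Col17a1, averaged between 0.147 and 2.05 CPM in each group. They were not called in any comparison in the fit of all libraries. Col7a1 in control and Col17a1 in FHL2 cells were each called lower with induction in 1 of the 17 alternatives. Leaving out 1 library called Col9a1 in FHL2 (replicate 3 of day 2, adjusted p = 0.0446) and Col14a1 in control cells (replicate 2 of day 2, adjusted p = 0.0217) as lower with induction.

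**Figure D4:**
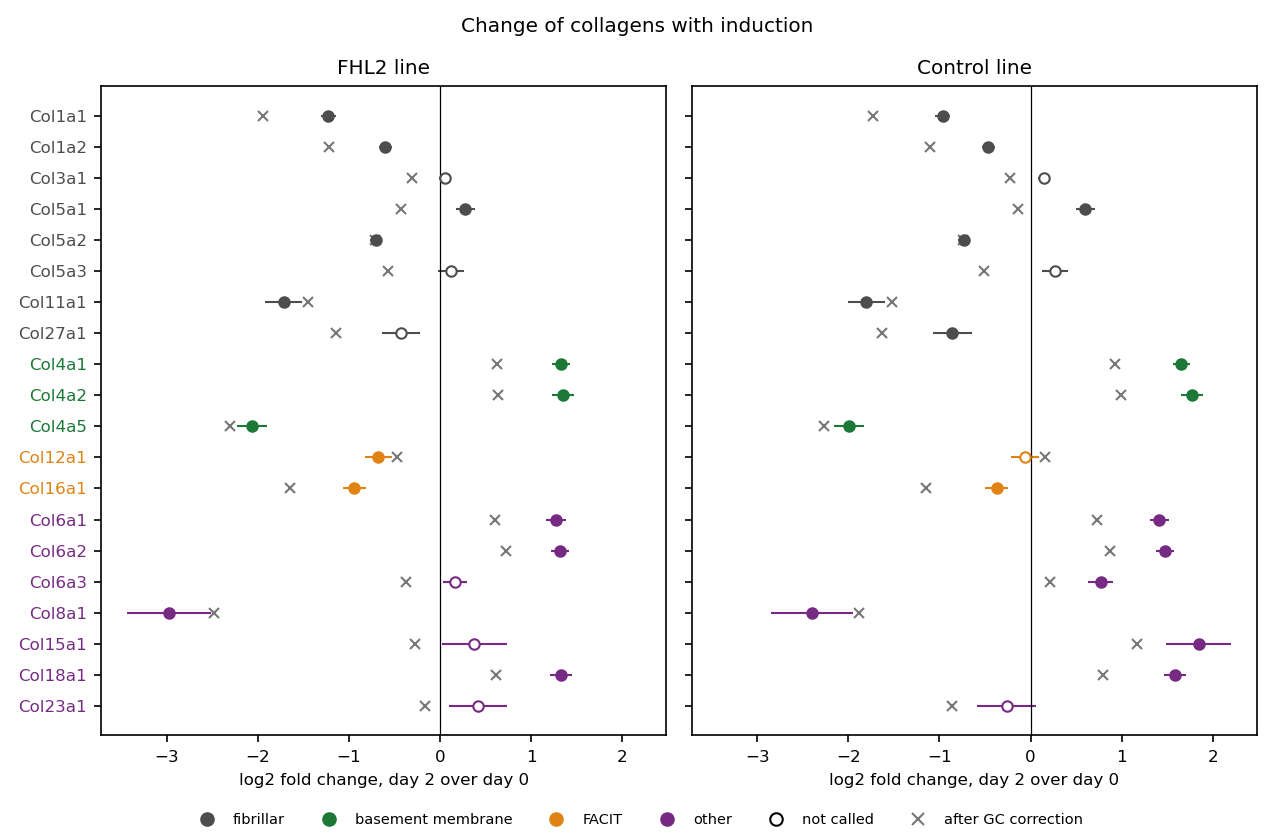
Log2 fold change of day 2 over day 0 with its standard error for the 20 collagens with a mean of at least 10 CPM in some group, in FHL2 and in control cells. Filled points were called at an adjusted p under 0.05, hollow points were not, and grey crosses are the values after GC correction. Most crosses lie to the left of their point, while Col4a1, Col4a2, Col6a1, Col6a2 and Col18a1 stay above 0 in both lines.

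The second question was how FHL2 cells differed from control cells after induction. At day 2, 7 of 28 tested collagens were lower in the libraries labelled FHL2 and 0 were higher, while 2.07% of all genes tested were called in this comparison, 0.72% higher and 1.35% lower. At an unadjusted p under 0.05 there were 12 collagens, against 18.1% of all genes. DESeq2, which called 6.91% of all genes, called 1 collagen higher, Col23a1, and 9 lower. Those 9 were the 7 lower ones and, besides, Col5a1 and Col12a1. The members called were spread over the classes: Col1a1 of 9 tested fibrillar chains, Col4a1 and Col4a2 of 3 basement membrane chains, Col16a1 of 6 FACIT chains, and Col6a3, Col15a1 and Col18a1 of 10 others. The groups did not overlap for 10 of the 28 collagens, against 14.7% of all genes. The median log2 fold change was -0.25 over the tested collagens and 0.01 over all genes, but the collagen median was -0.05 without control day 2 replicate 1 and -0.08 with GC and length correction. Since FHL2 at day 2 is also the upper group of the FHL2 induction comparison, and control at day 2 that of the control one, these comparisons share libraries.

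Of the 7 called collagens, Col15a1 differed most in fold, with 2.98 to 8.05 CPM in FHL2 and 18.5 to 24.8 CPM in control libraries (-1.73 ± 0.36, adjusted p = 0.0251, a fold of 0.302). Col18a1 stood at 107 to 123 CPM in FHL2 and 171 to 205 CPM in control libraries (-0.74 ± 0.12, adjusted p = 0.00653, a fold of 0.597), and its call held in each of the 17 alternatives. Col16a1 was lower by 0.64 ± 0.12 (adjusted p = 0.0191), with 109.9 to 121 CPM in FHL2 and 144 to 212 CPM in control libraries. Each of these 3 genes had every FHL2 library below every control library. The call of Col15a1 was lost without control day 2 replicate 1 (adjusted p = 0.0507) or 2 (adjusted p = 0.0715), and that of Col16a1 without FHL2 day 2 replicate 2 (adjusted p = 0.0889) or control day 2 replicate 1 (adjusted p = 0.0868) or 2 (adjusted p = 0.0711). Both calls were also lost with only the day 2 libraries in the fit (edgeR adjusted p = 0.105 for Col15a1 and 0.122 for Col16a1).

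Both chains of the common type IV trimer were lower by a like amount, Col4a1 by 0.55 ± 0.09 (adjusted p = 0.0103) and Col4a2 by 0.53 ± 0.12 (adjusted p = 0.032), folds of 0.682 and 0.691. Col6a3 was lower by 0.61 ± 0.14 (adjusted p = 0.0346), whereas Col6a1 (-0.14 ± 0.10, adjusted p = 0.52) and Col6a2 (-0.11 ± 0.09, adjusted p = 0.596) overlapped between the lines. Col1a1 was lower by 0.40 ± 0.08 (adjusted p = 0.0226), and Col1a2 was not called (-0.21 ± 0.07, adjusted p = 0.142). Without FHL2 day 2 replicate 2, without FHL2 day 2 replicate 3 and without control day 2 replicate 1, the calls of Col1a1, Col4a2 and Col6a3 were all lost, with adjusted p between 0.0588 and 0.106, and that of Col6a3 also without control day 2 replicate 2 (adjusted p = 0.0655). With GC and length correction Col1a1 (-0.21, adjusted p = 0.112) and Col16a1 (-0.43, adjusted p = 0.0907) were not called, and with GC correction Col4a2 was not (-0.47, adjusted p = 0.0504). With only the day 2 libraries in the fit, Col1a1, Col4a2 and Col6a3 were not called either. Col4a1 kept its call except without FHL2 day 2 replicate 2 (adjusted p = 0.0522). Col12a1 and Col5a1 did not overlap between the lines either but were not called, at -0.57 ± 0.15 (adjusted p = 0.0726, but 0.021 without FHL2 day 2 replicate 1) and -0.33 ± 0.10 (adjusted p = 0.112). Both were called lower with DESeq2 and without a filter, and Col12a1 also with limma-voom. Col23a1 was the only collagen with every FHL2 library above every control library, at 18.0 to 30.5 CPM in FHL2 and 4.87 to 13.2 CPM in control libraries, and missed the threshold (1.21 ± 0.32, adjusted p = 0.0725).

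The adipocyte markers were lower in FHL2 than in control libraries at the same day, 94.5 to 122 CPM against 130 to 185 CPM in sum, and their part in the difference of the collagens was not tested. The count of 7 lower collagens fell to 2 without FHL2 day 2 replicate 2 or without control day 2 replicate 1. It fell to 4 without FHL2 day 2 replicate 3 or control day 2 replicate 2. With only the day 2 libraries in the fit it was 2, Col4a1 and Col18a1, and 0.304% of all genes were called. It was 12 of 30 tested without the 3 libraries of day 2 that had the fewest genes, where 10.1% of all genes were called.

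**Figure D5:**
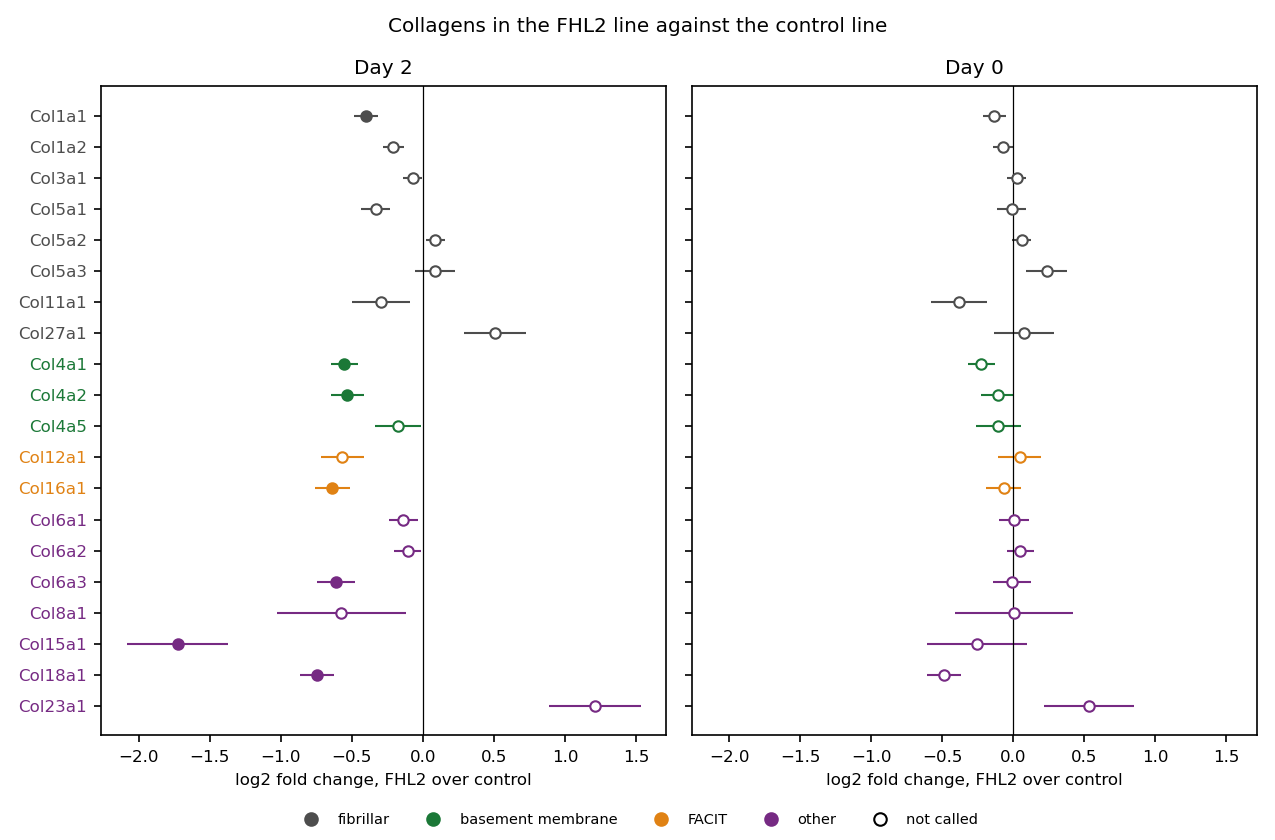
Log2 fold change of FHL2 over control with its standard error at day 2 and at day 0 for the 20 collagens with a mean of at least 10 CPM in some group, on a common axis. Filled points were called at an adjusted p under 0.05. The 7 filled points, all below 0, are at day 2, and none is filled at day 0. Calls at both days rest on 1 estimate of spread per gene over all 12 libraries. With only the groups compared, 2 collagens were called lower at day 2 and 1 at day 0.

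Before induction, at day 0, 0 of 28 collagens were called in either direction, as against 0.0485% of all genes tested, 3 higher (0.0208%) and 4 lower (0.0277%), and 2 collagens had an unadjusted p under 0.05, against 4.16% of all genes. DESeq2, which called 0.644% of all genes, called 1, Col18a1, which had 39.1 to 51.8 CPM in FHL2 and 61.1 to 67.8 CPM in control libraries (edgeR -0.49 ± 0.12, adjusted p = 0.256). The other was Col4a1 (-0.23 ± 0.09, adjusted p = 1). With only day 0 libraries in the fit, 246 of 14044 genes were called, 120 of them lower. Of 27 collagens tested there, Col11a1 was called lower (-0.36, adjusted p = 0.032). It had 137 to 143 CPM in FHL2 and 169 to 196 CPM in control libraries. The groups did not overlap for 8 of the 28 collagens, against 21.6% of all genes, and the median log2 fold change was -0.00069 over the tested collagens against -0.0176 over all genes.

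Whether induction acted differently in the lines was tested as an interaction, in which the day 0 difference between FHL2 and control is subtracted from the day 2 difference. It called 0 of 28 collagens, while 0.00693% of all genes, 1 gene, were called. At an unadjusted p under 0.05 there were 8 collagens, against 6.9% of all genes. Those 8 were Col16a1 (-0.57 ± 0.17), Col6a3 (-0.60 ± 0.19), Col15a1 (-1.47 ± 0.50), Col12a1 (-0.61 ± 0.21), Col4a2 (-0.42 ± 0.16), Col4a1 (-0.33 ± 0.13), Col1a1 (-0.26 ± 0.11) and Col5a1 (-0.32 ± 0.15), with edgeR adjusted p between 0.536 and 0.719. DESeq2 also called 0. Without the 3 libraries of day 2 that had the fewest genes, Col6a3 (-1.06), Col8a1 (-1.32) and Col12a1 (-1.09) were called, 3 of 30 collagens tested, against 1.52% of all genes. Calls made in 1 line alone, such as those of Col6a3 and Col15a1 in control cells, were thus not shown to differ between the lines with all libraries.

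The enzymes and carriers that make collagen were read from a list of 36 genes, of which 33 were tested. With induction 17 rose and 10 fell in FHL2 cells, where 56% of all genes were called. In control cells 18 rose and 9 fell, where 57.1% were. After GC correction 11 rose and 7 fell in FHL2 cells, where that fit called 39.2% of all genes. In control cells 12 rose and 9 fell, where it called 39.5%. P4ha2, a catalytic subunit of the prolyl hydroxylase that stabilises the triple helix, rose to 211 ± 15 CPM in FHL2 day 2 libraries, against 52.3 ± 3.9 CPM at day 0 (2.01 ± 0.10, adjusted p = 1.93e-09), and to 379 ± 18 CPM in control day 2 libraries, against 64.1 ± 4.5 CPM at day 0 (2.56 ± 0.10, adjusted p = 2.14e-10). P3h2, a prolyl 3-hydroxylase that acts on basement membrane collagens, rose by 2.07 ± 0.18 in FHL2 (adjusted p = 3.61e-07) and by 3.38 ± 0.19 in control cells (adjusted p = 7.15e-09), and Adamts2, which removes the amino-terminal propeptide of fibrillar procollagens, by 1.65 ± 0.10 (adjusted p = 1.28e-08) and 1.53 ± 0.10 (adjusted p = 2.02e-08) in FHL2 and control cells. After GC correction these changes were smaller in FHL2 and control cells, at 1.69 and 2.23 for P4ha2, 1.69 and 2.99 for P3h2, and 1.13 and 0.995 for Adamts2. Plod1, a lysyl hydroxylase, rose by 1.59 ± 0.12 in control cells (adjusted p = 9.28e-08). Sec23a, part of the coat of vesicles that carry procollagen, fell by 1.33 ± 0.14 in FHL2 cells (adjusted p = 2.46e-06), but its log2 fold change was 0.035 after GC correction.

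In FHL2 against control at day 2, 5 of the 33 were lower and 0 higher. Of all genes tested 2.07% were called there, 0.72% higher and 1.35% lower. P4ha2 had 211 ± 15 CPM in FHL2 and 379 ± 18 CPM in control libraries (-0.84 ± 0.09, adjusted p = 0.00077). Creb3l1, a transcription factor that in mouse bone drives Col1a1, was lower by 0.62 ± 0.13 (adjusted p = 0.0295), Adamts2 by 0.59 ± 0.10 (adjusted p = 0.00748) and P4ha1, the other main catalytic subunit, by 0.46 ± 0.11 (adjusted p = 0.0463). Leaving out 1 day 2 library ended the call of Creb3l1 for FHL2 replicates 1 and 2 and control replicates 1 and 3, and that of P4ha1 for every one but control replicate 3, with adjusted p up to 0.133. With only the day 2 libraries in the fit, Adamts2 (edgeR adjusted p = 0.099), Creb3l1 and P4ha1 were not called. P4ha2 kept its call in each of the 17 alternatives. The remaining one, chosen after its values were seen, was P4hb, the shared subunit of the prolyl hydroxylase, at 2548 ± 152 CPM in FHL2 and 3260 ± 256 CPM in control libraries. At day 0 Adamts2 was lower as well (-0.70 ± 0.10, adjusted p = 0.0101), and that call was lost on leaving out any 1 day 0 library other than control replicate 2 (adjusted p between 0.0645 and 0.116).

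Of 14 receptors and binding proteins for collagen, 11 were tested. With induction 1 rose and 7 fell in FHL2 cells, and 2 rose and 5 fell in control cells, beside 56% and 57.1% of all genes called in FHL2 and control cells. After GC correction 1 rose and 7 fell in FHL2 cells, where that fit called 39.2% of all genes. In control cells 1 rose and 4 fell, where it called 39.5%. Itgb1, the beta subunit shared by the collagen-binding integrins, had 555 ± 26 CPM in FHL2 day 2 and 592 ± 35 CPM in control day 2 libraries, against 1293 ± 31 CPM in FHL2 day 0 and 1313 ± 91 CPM in control day 0 libraries. It fell by 1.22 ± 0.08 in FHL2 (adjusted p = 2.02e-08) and by 1.15 ± 0.08 in control cells (adjusted p = 2.89e-08), but by 0.32 (adjusted p = 0.0193) and 0.16 (adjusted p = 0.218) after GC correction. Ddr2, a receptor tyrosine kinase for fibrillar collagens, fell by 1.09 ± 0.18 in FHL2 and 1.17 ± 0.18 in control cells, and neither was called after GC correction. Itga11, the alpha subunit of a fibroblast integrin for type I, had a log2 fold change of -2.36 ± 0.60 in FHL2 (adjusted p = 0.00394) and -1.96 ± 0.59 in control cells (adjusted p = 0.0107), and -2.99 and -2.59 after GC correction. Adgrg6, an adhesion receptor that binds type IV collagen, fell to 1.32 ± 0.65 CPM in FHL2 day 2 libraries, against 25.3 ± 3.5 CPM at day 0 (-4.26 ± 0.44, adjusted p = 1.67e-06), and to 5.06 ± 3.34 CPM in control day 2 libraries, against 33.0 ± 2.9 CPM at day 0 (-2.74 ± 0.40, adjusted p = 3.79e-05). After GC correction its log2 fold change was -3.19 in FHL2 and -1.52 in control cells. At day 2 it was also the 1 receptor called between the lines, lower in FHL2 (-1.91 ± 0.44, adjusted p = 0.0395), where 2.07% of all genes were called. It is named there after its values were seen, since its mean was below 5 CPM. With GC and length correction no receptor was called there. No receptor was called between the lines at day 0.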

How the data were processed

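The authors deposited 1 table of counts, whole reads for each Ensembl gene in each library. Libraries were stranded and selected for polyadenylated RNA, per the labels' protocols. The submitters' processing notes name build GRCm39 and, for counting, HTSeq 0.11.0, for alignment HISAT2 2.2.1, besides limma, R 4.1.0, FastQC 0.11.9 and Trimmomatic 0.39. No source used here gives their settings, the annotation or the strand option.

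Samples were grouped by their titles. Symbols were matched for 52081 of 55414 identifiers. Genes were tested with edgeR 4.0.16 (R 4.3.3): filterByExpr by group left 14435 genes, TMM scaling, a quasi-likelihood fit of all 12 libraries with 1 mean per group, 2-sided p-values adjusted over all genes tested (Benjamini-Hochberg), and calls at an adjusted p under 0.05. In edgeR's fit, variation (BCV) was 0.12 over day 0, 0.39 over day 2 and 0.283 over all libraries. The fit of all libraries thus took a spread below that of day 2 alone and above that of day 0 alone. That makes calls between the lines easier at day 2 and harder at day 0. Levels are TMM-scaled CPM. Lengths and GC content come from the longest GENCODE M21 transcript (99.83% of tested genes have one), and promoters from RefSeq. The steps were run on simulated counts with a common spread per gene in all libraries and no relation to GC content. That run therefore does not cover the unequal spread of the days or the relation with GC content.

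The alternatives tried were upper-quartile and RLE scaling, testing without a filter, 1 CPM in 3 libraries, DESeq2 1.42.0, limma 3.58.1 (voom), fits of only the groups compared, a replicate block, leave-outs, and smooth per-library offsets (natural splines, 5 degrees of freedom) following GC content, or GC content and length. Members, lists and rules were chosen with earlier results of these data known. Named were all tested collagens, and per comparison, from each of the 2 other lists, up to 4 called genes: those averaging 5 CPM or more that changed most.

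Replicates of a group differed by more than counting error.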

Additional observations from a re-analysis of the deposited data

How the results depend on the processing

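With the replicate block, the counts of collagens called were those without it in all 5 comparisons: 7 lower in FHL2 against control at day 2, 6 higher and 10 lower with induction in FHL2 and 8 and 8 in control. In the induction comparisons, among values called before or after it, the direction turned with GC correction for Col3a1 (-0.31 in FHL2, -0.23 in control), Col5a1 (-0.43, -0.14), Col5a3 (-0.57, -0.51), Col6a3 in FHL2 (-0.38) and Sec23a in FHL2 (0.035), and with GC and length correction for Col12a1 (0.020 in FHL2, 0.57 in control), Ddr2 (0.13, 0.040) and Sec23a in FHL2 (0.016). Values called neither before nor after turned too: with GC correction Col12a1 in control (0.16), and Col7a1 (-0.67), Col15a1 (-0.27) and Col23a1 (-0.16) in FHL2, and with GC and length correction Col5a3 (-0.15 in FHL2, -0.19 in control), Col3a1 (-0.0079) and Col7a1 (-0.081) in FHL2. The cause was not tested. The collagens lower in FHL2 at day 2 (7) became 2 with only the groups compared and 12 without the 3 libraries of day 2 that had the fewest genes, and 2 to 8 over the leave-outs. Collagens higher there (0) became 1, Col23a1, without a filter, with DESeq2 and with GC and length correction. At day 0 those lower (0) became 1 with DESeq2 (Col18a1) and 1 with only the groups compared (Col11a1). With induction in control, those lower (8 of 28 tested) became 13 of 30 without the 3 libraries. Over all genes, those lower there went from 4447 of 14435 to 5437 of 15977. In the interaction, those lower (0) became 1 without a filter (Col6a3) and 3 without the 3 libraries. Over the leave-outs, induction gave 5 to 7 higher and 10 to 11 lower in FHL2 and 8 to 10 higher and 7 to 10 lower in control. Voom shifted the median of all genes with induction by -0.142 in FHL2 and -0.123 in control, GC correction by 0.112 and 0.137, and no filter by -0.182 and -0.23. Leaving out the 3 libraries leaves 1 FHL2 library at day 2, which is assumed to vary like the others. Replicate numbers were not taken as pairs: deviations from group means of same-numbered libraries correlated at -0.0862 to 0.105, and not every library correlated best with its own number. Depth limits the 16 collagens under the filter and those near 1 CPM.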
